A study of Mus musculus with 3 samples.

Results

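This comparison sets splenic monocytes that express Spic against splenic monocytes that do not, across all genes measured. It uses 2 of the 3 arrays of the series, the Spic-positive monocyte array and the Spic-negative monocyte array, and takes for each gene the log2 level in the first minus that in the second. The third array, of red pulp macrophages sorted as high for F4/80 and for the reporter, gives levels to read beside them. Of 18193 genes with a probe set of their own, 11775 lay above a floor of log2 5.02 (the median of all probe sets) on at least 1 monocyte array and were compared. Levels at or below the floor are near the background of the array, so a difference measured against one is uncertain in size.

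All cells came from spleens of adult Spic(igfp/+) mice, which carry 1 reporter allele of Spic and 1 unaltered allele, so cells called Spic-negative and cells called Spic-positive share that genotype and neither population is wild type. Monocytes were CD11b+ Ly6C+ cells that remained after magnetic removal of cells bearing CD4, CD8 or B220, and the green fluorescence of the reporter divided them into GFP+ (Spic-positive) and GFP- (Spic-negative) monocytes. Each population gave 1 array, and the sources used here do not give the number of mice in it. With 1 array per population the differences have no replicate check, the number of arrays limits the precision, and no p-value is given. In bulk RNA, a larger share of cells of one kind and more RNA per cell cannot be told apart.

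Spi-C, the protein encoded by Spic, is an Ets family transcription factor related to PU.1 and Spi-B and is required for red pulp macrophages. Those macrophages take up aged red blood cells, break down heme with heme oxygenase and return the iron to the blood through ferroportin. Heme releases Spic from the repressor BACH1, and the title of the series places heme and monocytes in the development of these macrophages.

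The label was checked first on the genes it names. Spic measured log2 5.66 in GFP- monocytes, 9.22 in GFP+ monocytes and 12.23 in red pulp macrophages, so that GFP+ cells lay between the others. Both of its probe sets are of kinds that can bind more than 1 transcript, and the second measured 4.64, 9.61 and 11.78, so Spic has no value when such probe sets are left out. Of the other markers given for the comparison, Vcam1, which encodes an adhesion receptor for the integrin VLA-4, measured 3.9999, 9.58 and 13.58 in the same order. C1qa, a chain of the complement recognition protein C1q, measured 4.35, 8.66 and 12.96. Ccl5, a chemokine for T cells and monocytes, measured 6.87, 11.87 and 9.22 and was the 1 marker of these that was lower in macrophages than in GFP+ monocytes. Both monocyte arrays carried monocyte transcripts: Csf1r, the receptor for the growth factor CSF1, was at 13.65 and 13.55 in GFP- and GFP+ cells, and Cx3cr1, a chemokine receptor, at 10.69 and 10.95. Itgam, the gene of the sort marker CD11b, was at 8.68 and 7.38, a difference of -1.30 between cells gated with the same antibody.

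Some measurements of the arrays themselves move with the comparison. The 3′ probe set of Gapdh exceeded its 5′ probe set by 0.48 on the GFP- array and 2.25 on the GFP+ array, a sign of RNA or labelling quality, while for beta-actin the gap was 0.74 and 0.57. The part of this in the results was not tested. All 18 hybridization control probe sets, added at fixed amounts, were brighter on the GFP+ array, with a median difference of 2.16. The difference between the monocyte arrays also depended on the level of a gene. The genes compared were divided by mean level into 5 bins of 2355. The median difference was 0.24 in the dimmest bin (mean levels 4.05 to 5.72), 0.04 in the next, -0.16 in both of the following ones and -0.13 in the brightest (above 9.41). The share of genes higher by 2-fold or more was 7.81% in the dimmest bin and 1.06% in the brightest. The part of this shift in the difference of any group of dim genes was not tested. Xist was below the floor on both monocyte arrays (4.63 and 4.70), and the Y-linked gene Eif2s3y measured 10.10 and 9.56 there, against 11.95 for Xist and 3.31 for Eif2s3y in macrophages, so for these sex-linked genes the monocyte arrays match each other and not the macrophage array.

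**Figure D1:**
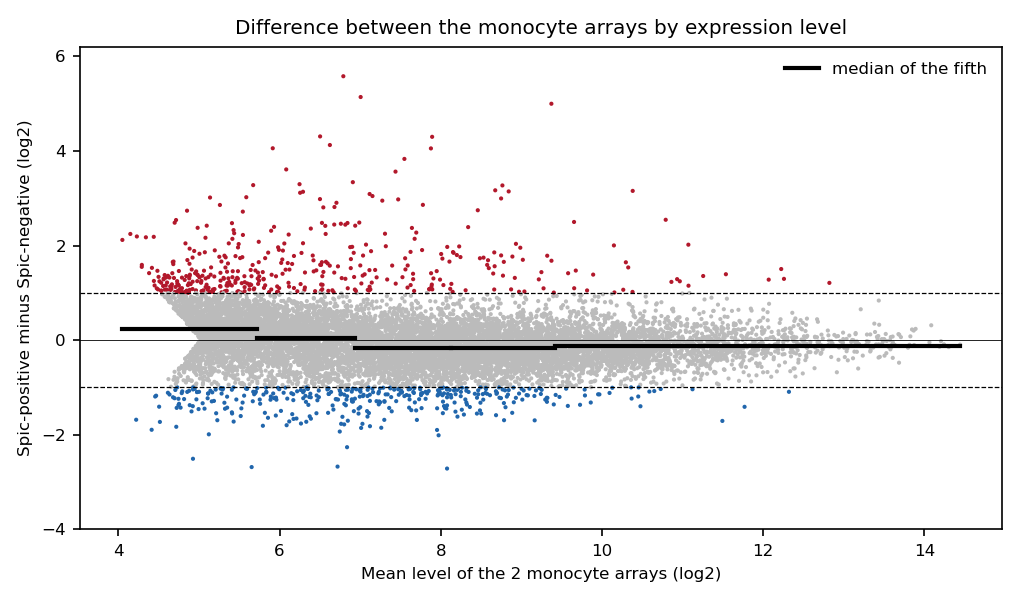
Each point is 1 of the 11775 genes compared, with its mean log2 level on the monocyte arrays on the horizontal axis and the difference, GFP+ minus GFP-, on the vertical axis. Red and blue points are higher by 2-fold or more and lower, dashed lines mark 2-fold, and black bars give the median in each of the 5 level bins, which runs from 0.24 at the dim end to -0.13 at the bright end.

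Most genes differed little between the monocyte populations. Of the genes compared, 93.3% differed by less than 2-fold, 413 (3.51%) were higher by 2-fold or more in GFP+ monocytes and 373 (3.17%) lower by 2-fold or more. The shares of 3.51% and 3.17% are the background for the counts of each group below. Larger differences were mostly upwards: 81 genes (0.688%) were higher by 4-fold or more and 6 (0.051%) lower by 4-fold or more, and at 8-fold the counts were 24 and 0. Of the 413 genes, 196 were at or below the floor in GFP- monocytes, while 71 of the 373 were so in GFP+ monocytes. With the arrays centred on their medians 42.3% of the genes past 2-fold were higher, against 52.5% here, 62.4% after a further quantile normalization and 60.4% after cyclic loess. Probe sets gave a limited check on direction and size. A further probe set above the floor on a monocyte array existed for 128 of the 413 genes and 165 of the 373. A dim probe set could pass through 1 array only, so the agreement is not an even check of all these genes. Of 174 further probe sets for the 413 genes, 90.8% pointed the same way and 51.1% were themselves past 2-fold, and of 259 for the 373 genes 79.5% and 25.9% were. Around the limit, Txnrd1 (a difference of 1.004) lay just inside and Egr2 (0.996) just outside.

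Because the 3 C1q chains are encoded side by side and were high together, and because a group of interferon-type chemokines was too, promoter sequence is shown for the members that the reference table holds. The table is RefSeq's, on build GRCm38.p6, and had 1 start site each for C1qb, C1qc, Cxcl9 and Cxcl10. C1qa and Vcam1 were not among its entries. The 250 bases before each start site are printed 5′ to 3′ on the strand of the gene, with matches to 5 short motifs in capitals. The motifs, searched on both strands, were the PU box of the Spi family (GAGGAA), the interferon response motif (GAAA, 2 bases of any kind, then GAAA), a kappa B motif (GGG, 2 bases of any kind, T, 2 bases of any kind, then CC), the antioxidant response motif (TGACNNNGC) and the Y box (TGATTGG). No match overlapped another in these windows. C1qb lies on the minus strand at chr4:136886201-136886450, C1qc on the minus strand at chr4:136892915-136893164, Cxcl9 on the minus strand at chr5:92328080-92328329 and Cxcl10 on the minus strand at chr5:92348890-92349139.
C1qb: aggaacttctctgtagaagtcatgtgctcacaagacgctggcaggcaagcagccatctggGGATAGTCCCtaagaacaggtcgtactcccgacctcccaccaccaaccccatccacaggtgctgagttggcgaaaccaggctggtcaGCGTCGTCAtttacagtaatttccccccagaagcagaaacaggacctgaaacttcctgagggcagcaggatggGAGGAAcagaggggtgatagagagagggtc
C1qc: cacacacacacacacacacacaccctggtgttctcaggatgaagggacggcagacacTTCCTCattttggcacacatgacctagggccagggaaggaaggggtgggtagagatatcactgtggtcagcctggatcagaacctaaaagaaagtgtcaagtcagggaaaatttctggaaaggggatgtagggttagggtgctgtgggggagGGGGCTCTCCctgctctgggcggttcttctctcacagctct
Cxcl9: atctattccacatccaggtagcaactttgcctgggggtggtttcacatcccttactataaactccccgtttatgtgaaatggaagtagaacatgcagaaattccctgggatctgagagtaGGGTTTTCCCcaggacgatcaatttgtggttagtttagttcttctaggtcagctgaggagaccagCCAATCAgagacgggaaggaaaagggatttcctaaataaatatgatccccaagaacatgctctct
Cxcl10: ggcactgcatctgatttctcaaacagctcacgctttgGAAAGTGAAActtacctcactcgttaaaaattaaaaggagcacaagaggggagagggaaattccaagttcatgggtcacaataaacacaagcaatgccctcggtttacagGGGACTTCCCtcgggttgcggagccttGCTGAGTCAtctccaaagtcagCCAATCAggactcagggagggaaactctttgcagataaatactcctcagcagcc

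In the C1qb window the PU box began 30 bases before the start site, with an antioxidant response motif at 103 and a kappa B motif at 190, both on the other strand. In the C1qc window a PU box lay at 193 on the other strand and a kappa B motif at 41. Cxcl10 held an interferon response motif at 213 and a kappa B motif at 103, and on the other strand an antioxidant response motif at 76 and a Y box at 54. Cxcl9 held a kappa B motif at 130 and, on the other strand, a Y box at 65. Spic, on chromosome 10, had no match in its window. Such short words are common. Over all 32851 promoters of this length in the table, 23.3% held a PU box, 2.98% an interferon response motif, 15.9% a kappa B motif, 10.2% an antioxidant response motif and 7.23% a Y box. Of the genes compared, 9534 had a promoter in the table, a gene being counted if any of its start sites held the motif. An interferon response motif was found for 23 of 301 genes higher by 2-fold or more (7.64%), 5 of 302 lower by 2-fold or more (1.66%) and 3.32% of all. The PU box was found for 32.6%, 27.2% and 26.04% in the same order, the kappa B motif for 26.6%, 25.8% and 23.8%, the antioxidant response motif for 17.6%, 13.6% and 14.003%, and the Y box for 8.97%, 9.93% and 10.7%. A match describes the letters of the window and is not a bound site, and no test of these shares was made.

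Genes of red pulp macrophages were mostly higher in GFP+ monocytes. Of 19 on the list, 17 had a probe set and 14 passed the floor. In GFP+ monocytes 8 of these were higher by 2-fold or more (57.1%, against a background of 3.51%) and none was 2-fold lower. Of the 8, 6 were above the floor on both monocyte arrays. Over all 17 the median difference was 0.91, against 0.02 over all 18193 genes. Vcam1 was 47.9-fold higher on its brightest probe set and by log2 1.63 and 1.07 on 2 others, so the direction held on all of them and the size did not. The difference of Vcam1 was 2.76 from the mean and 2.35 from the median of its probe sets. Mertk, a receptor for dying cells, measured 5.27 in GFP- monocytes, 8.09 in GFP+ monocytes and 12.70 in macrophages. Fcna, a ficolin that binds microbial sugars, measured 5.46, 7.90 and 13.82. Cd5l, a secreted protein of tissue macrophages, measured 4.43, 6.66 and 13.86. For each of these GFP+ cells lay between the other arrays, and all 3 were nearer to the level in GFP- monocytes than to that in macrophages. Maf, a transcription factor of resident macrophages, differed by 0.91 and Treml4, a receptor that binds dead cells, by 0.80, both under 2-fold. Siglec1, the sialic acid receptor of marginal macrophages, differed by 0.52. The remaining members above the floor, Pparg, Cd68 and Epor, differed by 0.35, -0.04 and -0.45. Cd163, Vsig4 and C6 stayed below the floor on both monocyte arrays and measured 11.48, 9.16 and 11.22 in macrophages.

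**Figure D2:**
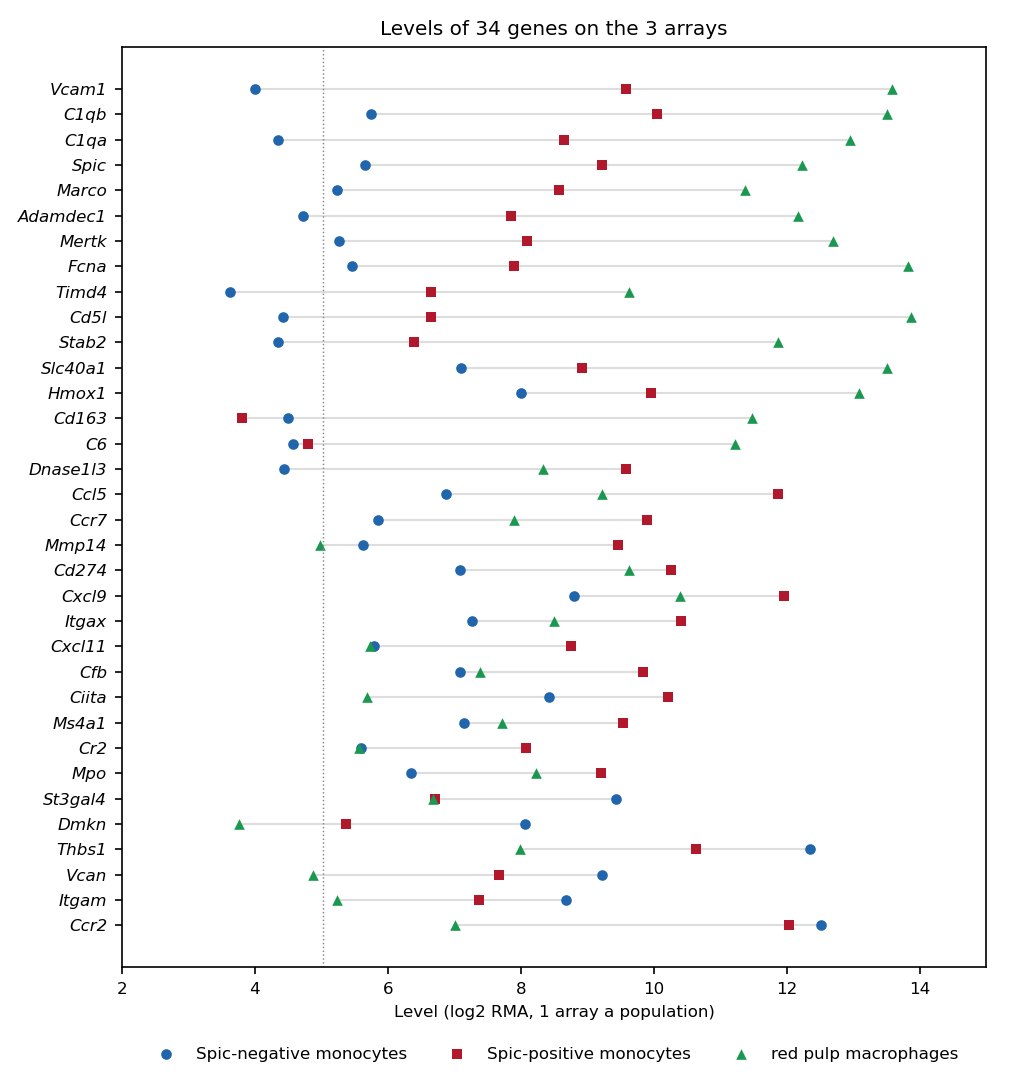
Log2 levels of 34 genes on the 3 arrays are shown, with circles for GFP- monocytes, squares for GFP+ monocytes and triangles for red pulp macrophages, and a dotted line at the floor of 5.02. From Vcam1 to Hmox1 the squares lie between circles and triangles, from Dnase1l3 to Mpo the squares are the highest of the 3, and from St3gal4 to Ccr2 the circles are. Cd163 and C6, which follow Hmox1, lie below the dotted line on both monocyte arrays. The square of C6 lies between its circle and triangle, and that of Cd163 does not.

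Complement genes split by type. C1qa, C1qb and C1qc were higher by 4.31, 4.30 and 4.06, and the 3 probe sets of C1qb gave 4.30, 4.08 and 3.84. Cfb, factor B of the alternative pathway, measured 7.09 in GFP- monocytes, 9.83 in GFP+ monocytes and 7.38 in macrophages. The proteases that act with C1q were not higher: C1ra measured 5.62 and 4.69 on the monocyte arrays and C1s1 was below the floor on both. Cfp, which stabilizes the alternative pathway enzyme, differed by -0.24 and C2 by 0.08. Of 10 complement components with a probe set, 7 passed the floor and 4 were higher by 2-fold or more (57.1%, against a background of 3.51%). Of the 4, 2 were above the floor on both arrays. C1qa and C1qc, at 4.35 and 3.89 in GFP- monocytes, passed the floor through the GFP+ array only, which raises the share. The median was 0.60 over all 10. Among receptors and regulators, Itgax (CD11c) was higher by 3.14, Cr2 (CD21) by 2.48 and the decay-accelerating factor gene Cd55 by 1.31, whereas Itgam and the C5a receptor C5ar1 (-1.16) were lower. Itgb2, the chain that pairs with both Itgam and Itgax, was at 12.51 on both monocyte arrays.

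For heme and iron, 3 of the 20 genes above the floor were higher by 2-fold or more (background 3.51%) and 1 was lower (background 3.17%), Hp, the hemoglobin-binding haptoglobin (-1.41). Hmox1, heme oxygenase 1, measured 8.01, 9.96 and 13.08 in GFP- monocytes, GFP+ monocytes and macrophages. Slc40a1, ferroportin, measured 7.09, 8.91 and 13.50, and its second probe set gave a difference of 0.89. Cp, ceruloplasmin, which oxidizes exported iron, measured 3.80, 6.17 and 8.25. The steps before and between them differed less: Blvrb and Blvra, which reduce biliverdin, by 0.58 and 0.44, Ncoa4, which delivers ferritin for breakdown, by 0.61, Tfrc, which imports transferrin iron, by 0.67, and the heme transporter Slc48a1 by -0.07. Aco1, the iron sensor IRP1, differed by -0.95. Among BACH1 and NRF2 targets 5 of 12 above the floor were higher by 2-fold or more (41.7%, against a background of 3.51%). From the mean of probe sets 3 of 12 were, and from the median 3 of 11. Beside Hmox1 and Slc40a1 the 5 were the glutathione genes Gclm (7.62 and 9.35 on the monocyte arrays) and Slc7a11 (4.69 and 6.15) and Txnrd1. Yet the difference of Txnrd1 was -0.24 from the median of its probe sets. Cat (catalase) and Gsr (glutathione reductase) differed by -0.89 and -0.39, and the genes of BACH1 and NRF2 themselves, Bach1 and Nfe2l2, by -0.20 and 0.31.

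Receptors for dying cells and the molecules that bridge to them differed in both directions. Timd4, which binds phosphatidylserine, measured 3.63, 6.64 and 9.62 on the 3 arrays, and Stab2, a stabilin, 4.35, 6.39 and 11.86. Axl was higher by 1.08. Itgb3, an integrin chain of a receptor for dying cells, was lower (-1.54). Of the bridging molecules, Pros1, which links dying cells to MERTK, differed by -1.16, Thbs1, which bridges through CD36, by -1.71, Mfge8 differed by -0.79 and Gas6 by 0.63. Of 19 members above the floor 4 were higher by 2-fold or more (21.1%, against a background of 3.51%). Another 3 were lower by 2-fold or more (15.8%, against 3.17%), and the median was 0.16 over all 20. Marco, a scavenger receptor for particles, measured 5.24, 8.58 and 11.38, while Olr1 and Msr1, receptors for modified lipoproteins, differed by -1.45 and -0.68. In the group for liver X receptor and lipids, Nr1h3, the receptor itself, was the 1 of 18 past 2-fold, a share of 5.56% that is near the background of 3.51% (6.19 and 8.07 on the monocyte arrays). Its targets Abca1, Abcg1 and Apoe differed by 0.63, 0.51 and -0.96, and Mylip and Srebf1 both by -0.01.

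A second set of genes was higher in GFP+ monocytes than on either other array. Dnase1l3, an enzyme that digests extracellular DNA, measured 4.43 in GFP- monocytes, 9.58 in GFP+ monocytes and 8.33 in macrophages, and its second probe set differed by 4.38. Ccr7, which guides cells to lymphoid tissue, measured 5.85, 9.90 and 7.90. Mmp14, a membrane-bound matrix protease, measured 5.63, 9.46 and 4.98, with differences of 1.20 and 0.71 on its further probe sets. The difference of Mmp14 was 1.91 from the mean of all of them. Cd274 (PD-L1), a ligand that restrains T cells, measured 7.09, 10.26 and 9.62. Itgax measured 7.27, 10.41 and 8.50. Procr, the protein C receptor, measured 4.28, 7.89 and 7.49. None of these was highest in macrophages, where Mmp14 was below the floor.

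Some chemokine genes were also highest in GFP+ monocytes and others were not. Of 24 ligands 20 passed the floor and 8 were higher by 2-fold or more (40%, against a background of 3.51%), 7 of those above the floor on both arrays. None was 2-fold lower, and the median was 0.59 over all 24. The CXCR3 ligands Cxcl9, Cxcl10 and Cxcl11, which are induced by interferon, measured 8.80, 9.15 and 5.80 in GFP- monocytes. In GFP+ monocytes they measured 11.96, 11.15 and 8.75, and in macrophages 10.40, 9.51 and 5.74. All 3 were therefore highest in GFP+ cells. Ccl4 and Ccl3, inflammatory chemokines, were higher by 2.02 and 1.23, Ccl12 by 2.18 and Cxcl16, a ligand that is also a scavenger receptor, by 1.76. Ccl2, a ligand of CCR2, differed by 0.61, Cxcl1 and Cxcl2, which attract neutrophils, by 0.41 and 0.37, and Ccl6 and Ccl9, abundant in monocytes, by -0.60 and -0.48. Among receptors Ccr1 was lower (-1.22), and 6 of 16 were higher by 2-fold or more (37.5%, against a background of 3.51%). They were Ccr7, the decoy receptors Ackr3 (2.19) and Ackr4 (1.03), the lymphocyte exit receptor S1pr1 (1.47), Cxcr5 (1.20) and Ccr9 (1.46), of which only Ccr7 and the dim Ackr4 were above the floor in both monocyte populations. The direction of Ccr9 turned to -0.07 when probe sets able to bind more than 1 transcript were left out.

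Interferon-inducible genes were unevenly represented. Of 9 guanylate-binding proteins and immunity-related GTPases, which attack vacuoles that hold pathogens, 4 were higher by 2-fold or more (44.4%, against a background of 3.51%). Of the 4, 2 were above the floor on both arrays. They were Gbp8 (4.56 and 8.69 on the monocyte arrays), Iigp1 (5.57 and 8.66), Gbp6 (4.93 and 6.78) and Gbp2 (9.47 and 11.12). The other 5 differed by less, from 0.07 for Gbp3 to 0.37 for Igtp. These genes are near-identical in places, and how far probe sets separate them is unknown. Of 25 antiviral genes 1 was past 2-fold, Ifit2 (1.47), a share near the background of 3.51%, and the median was 0.15. Mx1, Rsad2 and Ifit1 differed by 0.52, 0.62 and 0.64 and Oas1a and Oas2 by -0.13 and -0.19. None of the interferon regulatory factors passed 2-fold: Irf1 differed by 0.31, Irf7 by 0.40 and Irf8 by -0.03. In the NF-kappaB group Traf1 (1.68) and Relb (1.03), both targets of the pathway, were 2 of 18 past 2-fold (11.1%, against a background of 3.51%). None was 2-fold lower. Cytokines went both ways. Il1rn, the interleukin 1 receptor antagonist, was higher by 1.70, Il1a by 1.49, Pdgfb by 1.48, Il18bp, which neutralizes interleukin 18, by 1.43, Igf1 by 1.35 and Lta by 1.08, while Hgf, Tnfsf13b (BAFF) and Il6 differed by -1.25, -1.19 and -1.02, and 1 cytokine was 2-fold lower from the mean or median of probe sets. Il1b and Il18 differed by 0.11 each, and Il10 measured 4.28, below the floor, and 5.21 against 10.56 in macrophages.

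Class II presentation was higher across most of its list. All 13 genes with a probe set were above the floor, 7 were higher by 2-fold or more (53.8%, against the background of 3.51%) and none was lower, with a median of 1.10. Ciita, the master activator of class II genes, measured 8.43 in GFP- monocytes, 10.21 in GFP+ monocytes and 5.69 in macrophages, and its 3 probe sets gave 1.78, 1.18 and 0.91. H2-Eb1 measured 12.22, 13.43 and 12.70, and Cd74, the invariant chain, 11.61, 12.90 and 11.26. H2-Oa and H2-Ob, the chains of the H2-O molecule that B cells use to restrain peptide loading, were higher by 1.97 and 1.20. H2-Aa and H2-Ab1, the chains of the I-A molecule, differed by 0.84 and 0.65, and H2-DMa, which loads peptide, by 0.23. Class I presentation differed less: H2-D1, H2-K1 and B2m differed by 0.02, 0.17 and 0.20, the class I activator Nlrc5 by 0.84, and H2-T24 (-2.27) was the 1 of 13 past 2-fold. Of 12 costimulatory genes above the floor Cd274, Pdcd1lg2 (PD-L2, 1.20) and Cd40 (1.02) were higher by 2-fold or more (25%, against a background of 3.51%). From the mean or median of probe sets 2 of 11 were, and Cd40 was not among them. Cd80 and Cd86 differed by -0.66 and 0.26.

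**Figure D3:**
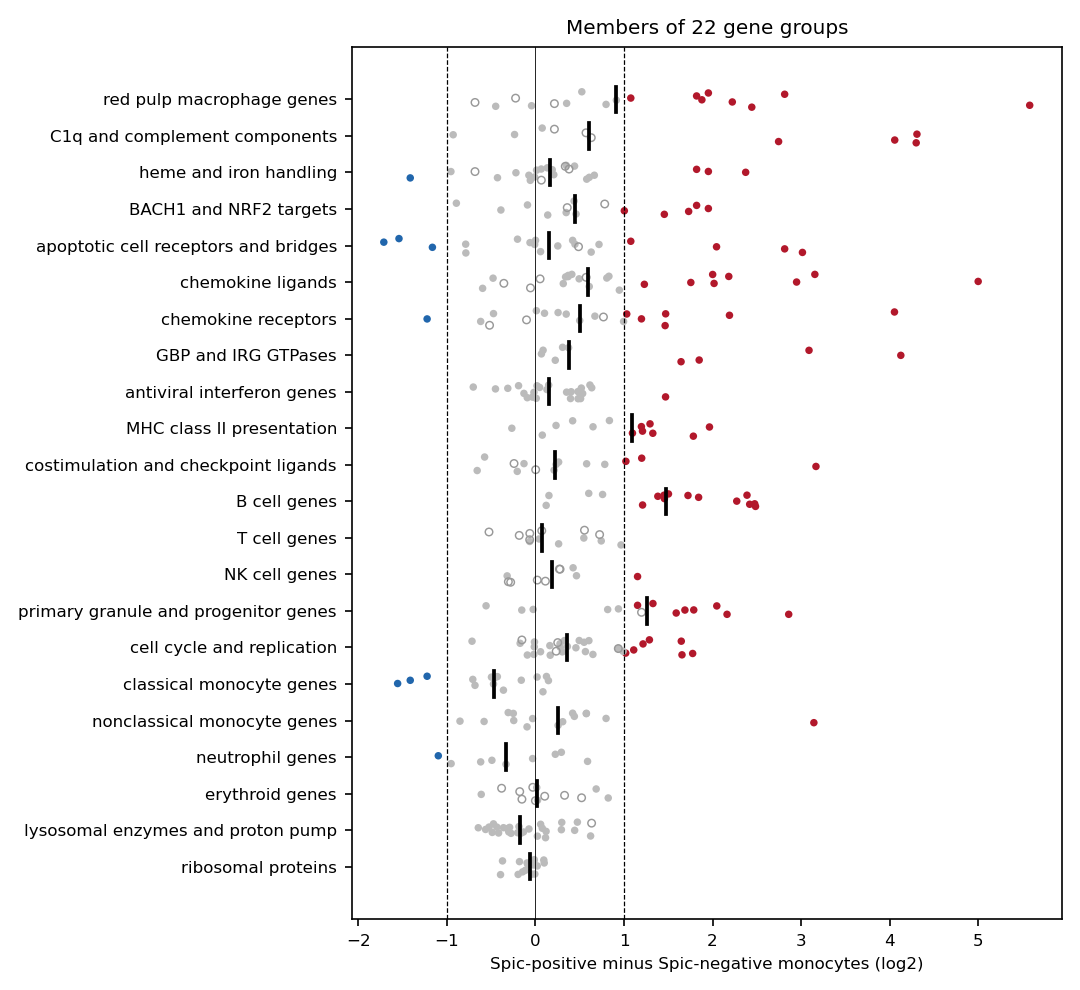
Each point is 1 gene of 22 groups, placed by its difference between GFP+ and GFP- monocytes in log2. Filled points were above the floor on a monocyte array, in red or blue past 2-fold, open points were below it on both, and black bars give the median over all members with a probe set, which is 0.91 for red pulp macrophage genes, 1.48 for B cell genes, 1.26 for primary granule and progenitor genes and -0.46 for classical monocyte genes.

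Markers of B cells, which were meant to be removed through B220 and which themselves carry class II, Cd40, Ccr7 and Cxcr5, were higher on the GFP+ array. Of 18 on the list 16 had a probe set and all passed the floor. Of these 12 were higher by 2-fold or more (75%, against a background of 3.51%), 8 of them above the floor on both arrays. From the mean or the median of probe sets 9 of 13 were higher by 2-fold or more. The median was 1.48, with a median level of 5.74 in GFP- and 7.64 in GFP+ monocytes. Ms4a1 (CD20) measured 7.14, 9.53 and 7.72 on the 3 arrays, Cd79b, a chain of the B cell receptor, 7.16, 8.88 and 9.82, and Blk, a B cell kinase, 5.73, 8.15 and 6.61. Cd79a, Ebf1, Pax5, Fcer2a and Fcrla were below the floor in GFP- monocytes and between 5.29 and 6.21 in GFP+ ones. Ighm was higher by 1.502 on its brightest probe set, yet the difference of Ighm was -1.09 from the median of its probe sets. B cell receptors also led the Fc and Siglec group, in which 5 of 14 were higher by 2-fold or more (35.7%, against a background of 3.51%). These were Cd22, Fcmr (1.57), Fcrla, Fcer2a and Siglecg (1.33). From the median of probe sets 3 of 13 were higher by 2-fold or more. The macrophage receptors Fcgr1, Fcgr3 and Fcgr4 differed by -0.46, -0.24 and -0.24. The Ets factor Spib, which B cells and plasmacytoid dendritic cells use, measured 5.53, 7.99 and 7.005, while Spi1, the gene of PU.1, was at 10.28 and 10.45 on the monocyte arrays. The part of B cell RNA in the class II, Cd40, Ccr7 and Cxcr5 differences was not tested.

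Other lineages were represented to different degrees. T cell genes had 6 of 13 members above the floor and none past 2-fold, with Cd3e at 6.63 and 6.57. NK cell genes had 4 of 10 above it, and Nkg7 (1.15) was past 2-fold. Ncr1 and Gzma were below the floor on both monocyte arrays. Of 9 neutrophil genes Mmp9 (-1.10) was lower and the others were under 2-fold, with Ngp and Camp above 11.7 on both arrays. Erythroid genes differed little (median 0.02 over 13), with Slc4a1, Car2 and Klf1 below the floor on both monocyte arrays against 11.32, 12.08 and 9.47 in macrophages. Among conventional dendritic cell genes Ccr7 and Zbtb46 (1.25, from 4.11 to 5.35) were past 2-fold, while Flt3, Cd209a, Clec10a and Kmo differed by -0.56, -0.34, -0.17 and -0.02 and Xcr1 was below the floor. In the plasmacytoid list Spib, Ly6d (2.25) and Ccr9 were past 2-fold, Siglech measured 5.02 and 5.70, and Tcf4 and Bst2 differed by 0.20 and -0.03. The 3 past 2-fold were 37.5% of 8 above the floor, against the same background.

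Genes of myeloid progenitors were mostly higher. Of 14 with a probe set 13 passed the floor and 8 were higher by 2-fold or more (61.5%, against a background of 3.51%). Of the 8, 4 were above the floor on both arrays, and the median was 1.26 over all 14. Mpo, Prtn3, Ctsg and Ms4a3, the first 3 of which encode enzymes of primary granules, measured 6.35, 7.74, 5.27 and 5.52 in GFP- monocytes. In GFP+ monocytes they measured 9.21, 9.43, 7.31 and 7.30. Elane, another granule protease, differed by 0.82. The stem cell factor receptor Kit measured 3.998 and 6.16 and the progenitor factors Myb and Gfi1 4.34 and 5.67, and 3.50 and 5.09. Nkg7 (1.15), the last of the 8, is also on the NK cell list. Flt3 and Irf8, which also mark progenitors, differed by -0.56 and -0.03. Cell cycle genes had 7 of 29 past 2-fold (24.1%, against a background of 3.51%) and none lower, or 3 of 28 from the mean of probe sets, with a median of 0.36 over 33: Prim1 (1.78), Bub1b (1.66), Cdk1 (1.65), Top2a (1.29), Mcm2 (1.22), Rrm2 (1.11) and Mki67 (1.02). Pcna, Plk1 and Mcm4 differed by -0.01, -0.09 and -0.17. The median levels of both groups in GFP- monocytes, 5.52 and 6.66 over members above the floor, were under the 7.64 of all genes compared, in the range of the dimmer bins, whose medians were 0.24 and 0.04. The part of that shift in these groups was not tested.

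Genes of classical monocytes were modestly lower. Of 15 with a probe set, all above the floor, 3 were lower by 2-fold or more (20.0%, against a background of 3.17%) and none was 2-fold higher, with a median of -0.46. Vcan, the proteoglycan versican, measured 9.23 in GFP- monocytes, 7.67 in GFP+ monocytes and 4.88 in macrophages, Hp 12.48, 11.06 and 10.62, and Ccr1, a receptor for CCL3 and CCL5, 9.54, 8.32 and 6.94. F13a1 and Fn1, coagulation factor XIII and fibronectin, differed by -0.71 and -0.68, Ccr2 by -0.47 and Cd14 by -0.43. S100a8, S100a9 and Plac8 differed by 0.15, 0.02 and 0.13 at levels above 13. Nonclassical genes had Itgax as the 1 of 15 past 2-fold, a share of 6.67% that is near the background of 3.51%. Nr4a1, their regulator, differed by -0.25, Cx3cr1 by 0.26, Ace by 0.57 and Spn (CD43) by -0.58. Among 13 coagulation genes above the floor Thbs1 (12.35, 10.64 and 7.98 on the 3 arrays) and Pros1 were lower by 2-fold or more. Their share was 15.4%, against a background of 3.17%. F5, Thbd and F10 differed by -0.94, -0.84 and -0.74, and 4 of the 13 had positive differences. Procr, below the floor in GFP- monocytes, was the 1 higher by 2-fold or more (7.69%, against a background of 3.51%).

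Surface and signalling groups held members past 2-fold in 1 direction or both. The backgrounds for the shares below were 3.51% higher and 3.17% lower. Among 23 adhesion genes Vcam1, Itgax, Itga9 (2.33) and Cadm1 (1.48, from 4.90 to 6.38) were higher and Itgb3 (-1.54), Itgam and Itgb7 (-1.19) lower. Itga9 turned to -0.08 when probe sets able to bind more than 1 transcript were left out. Itga4, which pairs with Itgb1 or Itgb7 to bind VCAM1, was at 12.10 and 12.28. Of the tetraspanins Cd81 measured 6.06, 8.08 and 12.73 on the 3 arrays, and Tspan33, Cd9 and Cd82 were higher by 1.98, 1.41 and 1.09. With Ms4a1, 5 of 19 tetraspanin and Ms4a genes were higher by 2-fold or more (26.3%) and none was 2-fold lower. For sialic acid transfer St3gal4, whose product makes selectin ligands, was 6.58-fold lower, at 9.44 and 6.72, and St3gal2 was lower (-1.43), while St8sia6 was higher on all 3 of its probe sets (2.37, 1.85 and 1.44). Of 16 sialyltransferase and galectin genes 6.25% were higher and 12.5% lower by 2-fold or more. In the Notch group Nrarp (-1.04) and Rbpj (8.99 and 7.99) were lower, 2 of 13 (15.4%). Yet none of the group was lower by 2-fold from the mean of probe sets or after quantile normalization or cyclic loess. Dtx1 was higher (1.58), 1 of 13 (7.69%), though none of the group was higher by 2-fold from the mean or median of probe sets. Notch1, Notch2 and Hes1 differed by -0.85, -0.16 and -0.32. Of pattern receptors Tlr1 was higher (1.77) and Tlr8 (-1.45) and Tlr6 (-1.05) lower, with Tlr2 and Tlr4 at -0.30 and -0.50. Clec4b1 was also higher by 2-fold or more, so 9.09% of 22 were higher and 9.09% lower. Among transcription factors Egr3 (1.41) and Bhlhe40 (1.38) were higher, and Cebpb, Klf4 and Zeb2 differed by -0.14, 0.06 and -0.71. With Spib, Nr1h3 and Zbtb46, 5 of 33 were higher by 2-fold or more (15.2%) and none was 2-fold lower. Stress genes induced by dissociation had Egr3 as the 1 of 22 past 2-fold (4.55%, near the background of 3.51%). Fos, Jun and Hspa1a were at 0.24, 0.50 and 0.16.

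Several basic groups had few members or none past 2-fold. None of 27 lysosomal genes (median -0.17 over 28), 22 genes of oxidative phosphorylation (-0.04), 16 genes for ribosomal proteins (-0.06) and 16 survival genes (-0.04 over 17) passed it in either direction. Sort genes other than Spic and Itgam differed by less: Ptprc, the gene of CD45 and B220, by 0.13, Cd4 by 0.26 and Cd8a by 0.97. In carbohydrate use, Ppp1r3b (-1.86) and Ppp1r3d (-1.26), which both direct a phosphatase to glycogen, were the 2 of 21 past 2-fold (9.52%, against a background of 3.17%). Pygl, glycogen phosphorylase, differed by -0.84. Cytokine receptors had Kit and Il15ra (1.13) higher and the decoy receptor Il1r2 (-1.37) lower among 26, with a median of -0.13 over 27. The shares were 7.69% higher, against a background of 3.51%, and 3.85% lower, near the background of 3.17%. Of 20 genes for interferon factors, STATs and their suppressors Socs7 (-1.04) was lower, a share of 5% that is near the background of 3.17%.

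Remaining groups had few members past 2-fold. Adamdec1, a metalloprotease, measured 4.72, 7.86 and 12.17 on the 3 arrays. It joined Mmp14 as the 2 of 14 matrix enzymes above the floor that were higher (14.3%, against a background of 3.51%). Of the 2, 1 was above the floor on both monocyte arrays. Mmp9 (-1.10) was lower (7.14%, against a background of 3.17%). Rab30, a small GTPase of the Golgi, measured 4.03, 7.31 and 7.65, Rab38 was higher by 1.095, and Rin2 (-2.02) and Rab3d (-1.01) were lower, among 23. The share was 8.70% in each direction, against backgrounds of 3.51% higher and 3.17% lower. Cst7, cystatin F, measured 4.73, 7.13 and 6.59, and the stefin Stfa2l1 6.997, 4.31 and 3.99, each being below the floor in 1 monocyte population. Of 11 genes in their group 9.09% were higher and 9.09% lower, against backgrounds of 3.51% and 3.17%. Dnase1l3, below the floor in GFP- monocytes, was the 1 of 7 nucleases past 2-fold (14.3%, against a background of 3.51%). Of 20 genes for TNF superfamily members, Lta and Cd40 were higher (10%, against a background of 3.51%) and Tnfsf13b was lower (5%, near 3.17%). From the mean or median of probe sets 1 of 17, Lta, was higher by 2-fold or more and none was 2-fold lower. Plasma cell genes had Mzb1 (1.19), endothelial and stromal genes Kdr (1.79, from 6.14 to 7.93) past 2-fold among 7 each, and platelet genes none of 8. A single gene among 7 is a share of 14.3%, against a background of 3.51%. Of 12 genes of basophils, mast cells and eosinophils 2 passed the floor and Hdc, which makes histamine, was lower (-1.22). That share of 50% rests on 2 genes, against a background of 3.17%.

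Outside these groups, the largest differences upwards included signalling proteins. Rgs1, which shortens chemokine receptor signals, measured 9.52, 12.06 and 12.996 on the 3 arrays, and Rasgrp1, an activator of Ras, 7.25, 10.25 and 8.70. Rgl1, an exchange factor for Ral, measured 5.63, 8.68 and 10.95, and Hbegf, a ligand of the epidermal growth factor receptor, 5.29, 7.76 and 9.34. The UDP-glucose receptor P2ry14 and the ADP receptor P2ry13 were higher by 2.31 and 2.14, the semaphorins Sema6d and Sema7a by 3.12 and 1.97, the heparan sulfate proteoglycan Sdc4 by 2.98 and the Ets factor Etv5 by 2.74. Surface proteins of lymphocytes were among them too: Slamf6 (2.47), Cd72 (2.36) and Cd200 (2.42). Immunoglobulin variable genes went both ways: Iglv1 (3.27), Igkv6-14 (2.98) and Ighv14-2 (2.23) were higher, and 2 other kappa variable genes differed by -1.94 and -1.61. Nuak1, a kinase, measured 4.60, 7.90 and 7.52, and Asb2, a subunit of a ubiquitin ligase, 4.08, 7.10 and 11.45. Lipid enzymes were Scd1, a fatty acid desaturase (2.44, and 0.43 on its second probe set), and Pla2g2d, a secreted phospholipase (2.81 and 2.95 on 2 probe sets). Ly6i measured 8.40, 10.90 and 6.31 and was thus highest in GFP+ monocytes, as was Adap2 (7.91, 9.95 and 9.20). Kcnj10, Epb41l3, Fmnl2 and Dst measured 6.90, 6.57, 7.69 and 6.69 in GFP+ monocytes and were higher still in macrophages, at 11.20, 11.31, 10.85 and 9.60. Coch, Gpm6b, Etv5 and Dst measured 3.45, 3.46, 3.48 and 3.83 in GFP- monocytes, below the floor, so the sizes of their differences are uncertain.

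Downwards the differences were smaller, and the genes named were of mixed kinds. Dmkn, dermokine, measured 8.06, 5.38 and 3.77 on the 3 arrays. Met, the receptor for hepatocyte growth factor, measured 9.07, 7.50 and 5.86, so that the receptor and its ligand Hgf were both lower on their brightest probe sets. Hgf was not among the genes 2-fold lower from the mean or median of probe sets. Cdkn2d, a cell cycle inhibitor, measured 10.01, 8.31 and 8.81, E2f2, a cell cycle transcription factor, 9.63, 7.94 and 8.91, and Zbtb16 (PLZF) 7.196, 5.47 and 5.05. Abcd2, a peroxisomal fatty acid transporter, was lower on all 4 of its probe sets, with differences of -1.69, -1.20, -1.52 and -2.30, and Ang, the ribonuclease angiogenin, differed by -1.62. The tyrosine kinase gene Bmx differed by -1.77, the hyaluronidase gene Cemip2 by -1.72, the glycosyltransferase gene B3gnt5 by -1.56 and the GDP-mannose dehydratase gene Gmds by -1.73. Kdm2b, a histone demethylase, differed by -1.59 on its brightest probe set and by -0.11 on another. Several of the lowest genes were higher again in macrophages than in GFP+ monocytes: Rpap3 measured 7.01, 5.34 and 8.24, Aptx, which repairs DNA ends, 6.68, 5.03 and 7.93, and Ttll1 6.94, 5.37 and 8.21.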

How the data were processed

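RNA of 3 sorted spleen populations was measured on Affymetrix arrays, 1 each. Per the labels' protocols, cRNA with biotin came from a kit of 2 amplification cycles, which can favour 3′ ends. The deposited log2 expression values were made by the authors with RMA, per the submitters' processing notes, with no version stated. The log2 scale was taken from the values (1.82 to 14.50, none below 0, so genes were not centred). Array medians were 5.01 (Spic-negative), 5.09 (Spic-positive) and 4.97 (macrophages). RMA aligns the arrays' distributions, which hides differences in total RNA per cell.

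Of 45101 probe sets, 64 controls were left out; 34945 had 1 symbol, 932 several and 9160 none here. Symbols of 34741 were updated through the gene identifier with a GRCm38.p6 table. Of several probe sets for a gene, the one brightest on average (3 arrays) stood for it. Because the floor was applied to the brighter monocyte array, a gene that passed through 1 array only had to differ, so medians of groups are given over all members with a probe set. The 54 gene groups, the named genes and the sequences shown were chosen with earlier results of these data known. Named genes were group members and, outside the groups, the 40 largest differences in each direction, at most 2 per family of close copies. Outside the groups, a gene's probe sets above the floor on a monocyte array had to agree in sign. Where only 1 was above it, this held by itself. Not all genes that the rule selects are reported here. The steps were tested on simulated data. Alternatives were the mean or median of probe sets, median centring, quantile normalization again, cyclic loess, no floor, a floor at the 75th percentile, and leaving out _x_at and _s_at probe sets. Python 3.11.15, numpy 2.4.6, pandas 2.3.3, matplotlib 3.10.9, R 4.3.3 and limma 3.58.1 were used.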

Additional observations from a re-analysis of the deposited data

Results flagged for a closer look

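Probe sets that the platform annotation used here does not name were left out of the gene comparison. Among the 3166 of them above the floor on a monocyte array, 9 were higher in GFP+ monocytes by 4-fold or more and 9 lower, with differences from -3.03 to 3.75. At 2-fold, 114 (3.60%) were higher and 168 (5.31%) lower. They are given because they lie outside the genes described.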

How the results depend on the processing

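With the mean of a gene's probe sets the genes at least 2-fold lower were 232 in place of 373, and with the floor at the 75th percentile the genes 2-fold higher and lower were 172 and 236. Under the other alternatives both counts stayed within 1.5 times; with all 8, the higher genes ran from 172 to 536 and the lower from 232 to 468. Quantile normalization again shifted the all-gene median from -0.07 to 0.04. The median of red pulp macrophage genes was 1.45 above the floor, 1.11 with the mean of probe sets, 0.91 with no floor and 1.82 with the stricter floor, and that of complement components 2.75, then 0.60 with no floor and 4.06 with the stricter floor. The stricter floor also gave 1.76 for chemokine ligands, 0.94 for cell cycle genes, 1.69 for progenitor genes and 2.33 for B cell genes, from fewer members. Of 222 genes recomputed, 8 changed direction under some alternative; Spic, Ackr3, Hdc and Procr have no value without _x_at and _s_at probe sets. The median of probe sets gave 0.12 for 1810014B01Rik, 0.060 for Ccnc, and a difference of Stox2 of 0.093; it was -0.24 for Txnrd1. Without probe sets ending in _x_at or _s_at, Ccr9 was -0.072, a kappa light chain variable gene 0.49 and Itga9 -0.081. The difference of Ighm was -1.09 with the median and -0.34 with the mean of probe sets. The cause was not tested. Lacking replicates, a value was counted as moved when it shifted by over 0.32, the median SD among probe sets of a gene. No replicate could be left out. No paired analysis was possible because each population has 1 array. Genes near the floor have the least certain sizes.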
